A study of Rattus norvegicus with 8 samples.

Results

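Adrenergic receptors and the proteins that couple them to cyclic AMP were examined in rat left ventricle: 9 genes, namely the alpha-1 receptors Adra1a, Adra1b and Adra1d, the beta receptors Adrb1 and Adrb3, the stimulatory G protein subunit Gnas, the adenylyl cyclases Adcy5 and Adcy6, and the receptor kinase Grk5. They were chosen by name, as every probe set whose platform annotation gave exactly 1 gene symbol equal to a listed gene, which found all 9 genes among 14497 named genes and 10 of 28826 probe sets, since Gnas had 2. The hearts came from female rats in late pregnancy, and all of them had undergone ischemia, a stop of the blood supply, and then reperfusion. Reperfusion came with the treatment labelled ILPD in 5 samples and with a vehicle (placebo) in 3; the design text calls the treatment ITLD, gives it as a single bolus of 5 mg/kg, and the series title names Intralipid, a lipid emulsion, so that both abbreviations are taken here for 1 treatment. Hearts without ischemia were not analysed here, and strain, age, times of ischemia and reperfusion and the number of animals are not given in the sources used here, and the p-values therefore reflect the scatter between samples, part of which may be technical.

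Adrenaline and noradrenaline raise the rate and force of the heart through beta receptors, of which the beta-1 type (Adrb1) is the main one in heart muscle cells. This receptor activates Gs, whose alpha subunit is encoded by Gnas, and Gs activates adenylyl cyclase, mostly Adcy5 and Adcy6 in the heart, which makes cyclic AMP for protein kinase A. The alpha-1 receptors act instead through Gq, phospholipase C and protein kinase C, and G protein-coupled receptor kinases such as Grk5 phosphorylate receptors that have bound agonist, which uncouples them.

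Of the 10 probe sets, 0 passed limma's adjusted p of 0.05 in the values as deposited, where 2.81% of all probe sets did. The alpha-1B receptor Adra1b and the cyclase Adcy5 came nearest. Both were lower in ILPD hearts, by 0.51 and 0.26 on the log2 scale, and in both the 2 groups did not overlap, as was seen with lower values in ILPD for 4.42% of all probe sets. Grk5 differed by 0.30 with overlapping groups, and the beta-1 receptor differed by 0.035. At an unadjusted p under 0.05 in limma there were 4 members (3 with a negative difference, 1 with a positive one), which is 4 of 10 beside 18.3% of all probe sets. The median difference was -0.046 over the members and 0.022 over all probe sets, and the median size of a difference was 0.096 over the members and 0.078 over all probe sets. Values are log2 signals of probe sets, so the level of 1 gene cannot be set against that of another. In a piece of ventricle, fewer cells of a type and less RNA per cell cannot be told apart.

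The stretches before the transcription start of Adra1b and Adcy5, the members nearest to the threshold, are shown because both genes were on the low side in ILPD hearts. They are the 250 bases before the start in RefSeq's promoter table for rat build GRCr8, at chr10:28814348-28814597 (minus strand) for Adra1b and chr11:79123344-79123593 (minus strand) for Adcy5, and 6 of the 9 genes had an entry there. Capitals mark GC boxes, the letters GGGCGG or their reverse complement.
Adra1b: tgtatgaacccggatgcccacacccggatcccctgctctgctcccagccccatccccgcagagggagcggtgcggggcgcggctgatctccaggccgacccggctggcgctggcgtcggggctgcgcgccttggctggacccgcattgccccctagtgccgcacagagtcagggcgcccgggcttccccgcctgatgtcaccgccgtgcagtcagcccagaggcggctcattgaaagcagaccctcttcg
Adcy5: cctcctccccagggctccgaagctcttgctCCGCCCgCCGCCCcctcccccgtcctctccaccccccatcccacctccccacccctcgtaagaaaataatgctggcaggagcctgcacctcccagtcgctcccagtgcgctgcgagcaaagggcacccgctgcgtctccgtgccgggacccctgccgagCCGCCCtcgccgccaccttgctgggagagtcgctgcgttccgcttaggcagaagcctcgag
The Adcy5 stretch held 3 GC boxes and the Adra1b stretch 0, and 30.5% of 33469 stretches of the same length in the table held at least 1. The cAMP response element TGACGTCA and its shorter form TGACG, both read on both strands, were found in neither stretch, while 1.59% of all stretches held the first and 18.2% the second. Among the other members with an entry, Adrb1 had 1 copy of the shorter form, whose first base lies 88 bases before the start.

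Adra1b, the alpha-1B receptor (probe set 10742213), had log2 values of 9.62, 9.83, 9.35, 9.47 and 10.04 on ILPD arrays 1 to 5, against 10.32, 10.04 and 10.15 on placebo arrays 1 to 3. ILPD array 5 stood level with the lowest placebo array, and the other ILPD arrays lay below all placebo arrays. The means were 9.66 ± 0.27 (SD, n = 5) in ILPD hearts and 10.17 ± 0.14 (SD, n = 3) in placebo hearts. The difference of -0.51 (SE 0.14, 95% interval -0.82 to -0.19, limma adjusted p = 0.0931) equals 1.42-fold lower in ILPD and did not pass the test. Of 2408 probe sets whose mean value was within 0.5 of that of Adra1b, 1.16% had a lower difference, and their median was -0.073. Its spread within groups, a pooled SD of 0.24, was larger than that of 94.1% of all probe sets. Without ILPD array 5 the difference was -0.60 and passed (limma adjusted p = 0.0297), while over all other settings run the adjusted p lay above 0.05.

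The other alpha-1 receptors showed smaller differences. Adra1a, the alpha-1A receptor of heart muscle cells (probe set 10781207), had 10.04, 10.23, 10.12, 10.21 and 10.34 on the ILPD arrays, against 10.27, 10.39 and 10.21 on the placebo arrays. The groups overlapped, and the difference was -0.10 (SE 0.08, 95% interval -0.27 to 0.07, limma adjusted p = 0.527), beside a median of -0.089 for probe sets of like brightness. Adra1d, the alpha-1D receptor known from large arteries (probe set 10850087), had 7.18, 7.35, 7.29, 7.12 and 7.34 on the ILPD arrays, against 7.27, 7.13 and 7.33 on the placebo arrays. Here the placebo values lay inside the range of the ILPD values, and the difference was 0.014 (SE 0.07, 95% interval -0.15 to 0.18, adjusted p = 0.944). Its sign was negative after quantile normalization (-0.069) and after cyclic loess (-0.053). The intervals reach 1.13-fold for Adra1d at the upper end and 0.829-fold for Adra1a at the lower end.

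**Figure D1:**
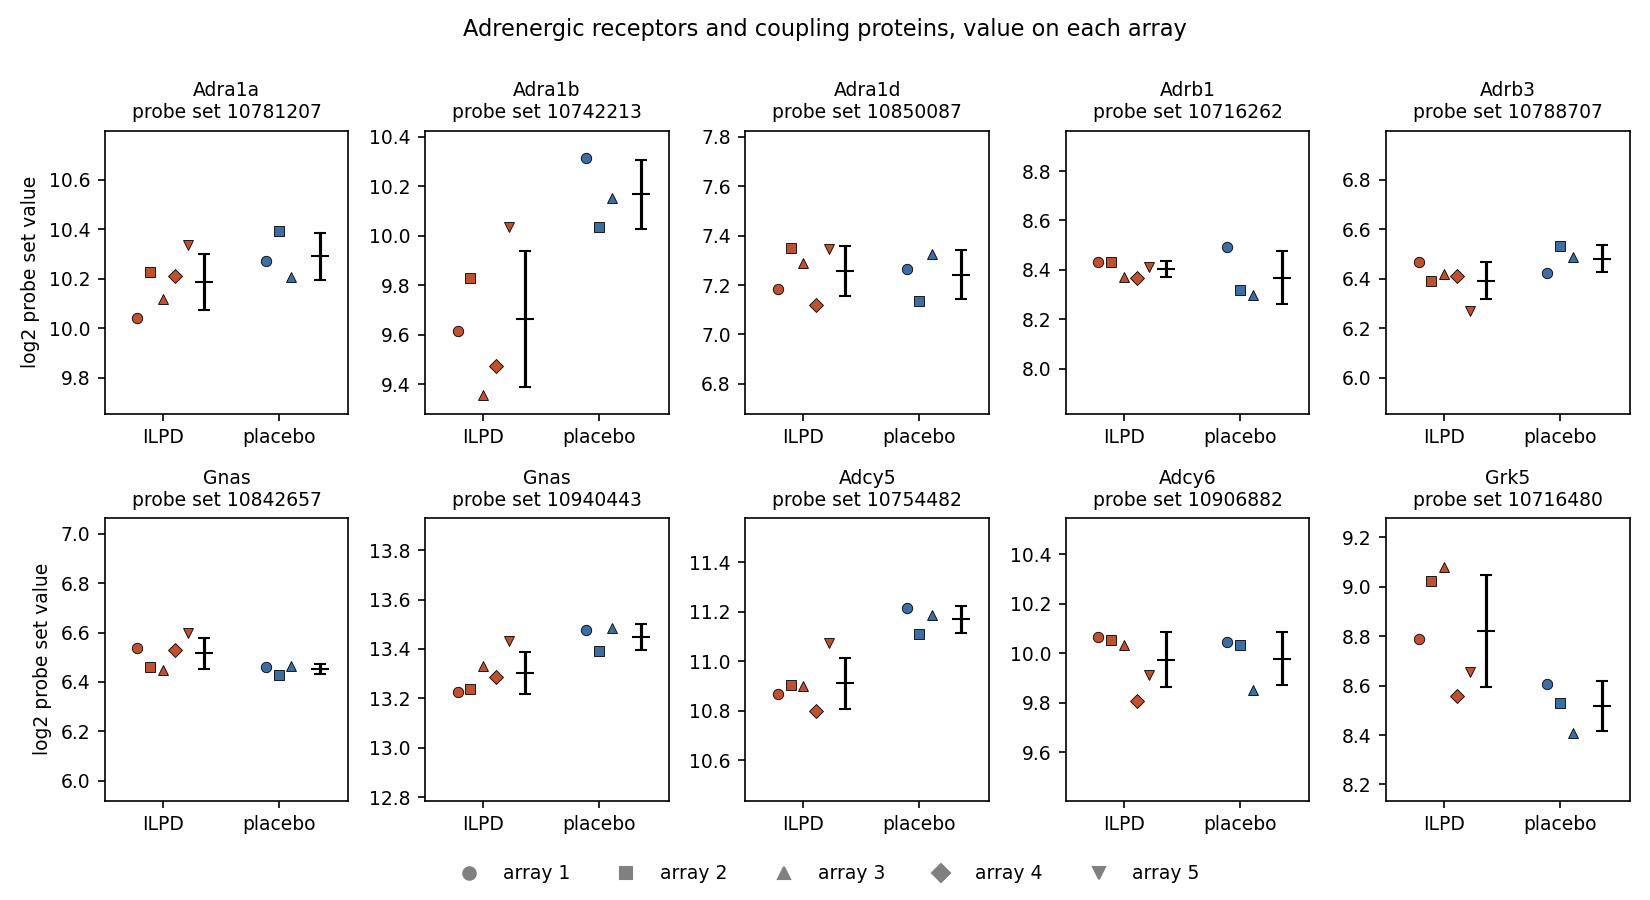
Log2 value of each of the 10 probe sets on each array (symbols mark the array number), with ILPD on the left and placebo on the right of each panel and the group mean ± SD as a bar beside the points. All panels span the same log2 range; Adra1b and Adcy5 are the members whose groups do not overlap, with ILPD array 5 and placebo array 2 of Adra1b both at 10.04.

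The beta receptors differed little between the groups. Adrb1, the main beta receptor of the heart (probe set 10716262), had 8.43, 8.43, 8.37, 8.37 and 8.41 on the ILPD arrays, against 8.49, 8.32 and 8.30 on the placebo arrays. All 5 ILPD values lay between the lowest and the highest placebo value. The difference was 0.035 (SE 0.06, limma adjusted p = 0.818), with a 95% interval of -0.10 to 0.17, or 0.935-fold to 1.12-fold. It was -0.015 after quantile normalization and -0.00091 without placebo array 3. Adrb3, the beta-3 receptor best known from fat (probe set 10788707), had 6.47, 6.39, 6.42, 6.41 and 6.27 on the ILPD arrays, against 6.43, 6.53 and 6.49 on the placebo arrays. ILPD array 5 was the lowest and placebo array 2 the highest, with overlap between the groups. The difference was -0.089 (SE 0.06, 95% interval -0.22 to 0.04, limma adjusted p = 0.476). Of 9039 probe sets of like brightness, 4.72% had a lower difference, and their median was 0.041. The difference of Adrb3 was -0.14 after quantile normalization and -0.13 after cyclic loess, without passing (limma adjusted p = 0.297 and 0.336). The Adrb3 probe set lay among the dimmest 40% of the table, as did 1 of Gnas. No detection value was available there, so a level of Adrb3 in these hearts cannot be claimed from it. Of 7 markers of fat cells measured, 7 had a positive difference (median 0.13) and 1 passed (Fabp4, a fatty acid binding protein also known from endothelium, by 0.82, limma adjusted p = 0.0173). Probe sets of like brightness had a median difference of 0.052, taken over the windows of these 7 genes. Of the 7 markers 2 lay below the median of their own window, and 3 lay among the dimmest 40% of probe sets. The mean log2 value of that list ran from 7.31 to 7.51 over ILPD arrays and from 7.17 to 7.27 over placebo arrays, and its part in the value of Adrb3 was not tested.

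Gnas, a gene with alternative first exons, had 2 probe sets of opposite sign. The brighter one (10940443) had 13.23, 13.24, 13.33, 13.29 and 13.43 on the ILPD arrays, against 13.48, 13.39 and 13.49 on the placebo arrays. Only ILPD array 5 reached above the lowest placebo array, and the difference was -0.15 (SE 0.06, 95% interval -0.29 to -0.01, limma adjusted p = 0.244). The 203 probe sets within 0.5 of its mean value, itself among them, had a median difference of -0.15. That median was the value of this probe set, which stood in the middle of them. After cyclic loess normalization, which evens out such shifts with brightness, the probe set gave 0.042. The dimmer one (10842657) had 6.54, 6.46, 6.45, 6.53 and 6.60 on the ILPD arrays, against 6.46, 6.43 and 6.47 on the placebo arrays. Its groups overlapped, with a difference of 0.064 (SE 0.05, 95% interval -0.06 to 0.18, limma adjusted p = 0.587).

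The cyclases did not share 1 pattern. Adcy5 (probe set 10754482), which makes cyclic AMP in heart and striatum, had 10.87, 10.90, 10.90, 10.80 and 11.08 on the ILPD arrays, against 11.22, 11.11 and 11.19 on the placebo arrays. Every ILPD array lay below every placebo array, by 0.033 at the closest. The means were 10.91 ± 0.10 (SD, n = 5) in ILPD hearts and 11.17 ± 0.06 (SD, n = 3) in placebo hearts. Its difference of -0.26 (SE 0.07, 95% interval -0.41 to -0.11), 1.20-fold lower in ILPD, had the lowest adjusted p of the members (limma, 0.0734) and did not pass. Groups that do not overlap, in either direction, were found for 12.4% of all probe sets. The 1165 probe sets of like brightness had a median difference of -0.12, and 15.7% of them had a lower one than Adcy5. Quantile normalization brought the difference to -0.16 (limma adjusted p = 0.214) and cyclic loess to -0.15 (0.243). Without ILPD array 5 it was -0.30 and passed (0.0284). Adcy6, the other main cyclase of heart muscle cells (probe set 10906882), had 10.07, 10.05, 10.03, 9.81 and 9.91 on the ILPD arrays, against 10.04, 10.03 and 9.85 on the placebo arrays. Its groups overlapped, and the difference was -0.0033 (SE 0.08, 95% interval -0.18 to 0.17, adjusted p = 0.988), with a positive sign after quantile normalization (0.050) and cyclic loess (0.069).

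**Figure D2:**
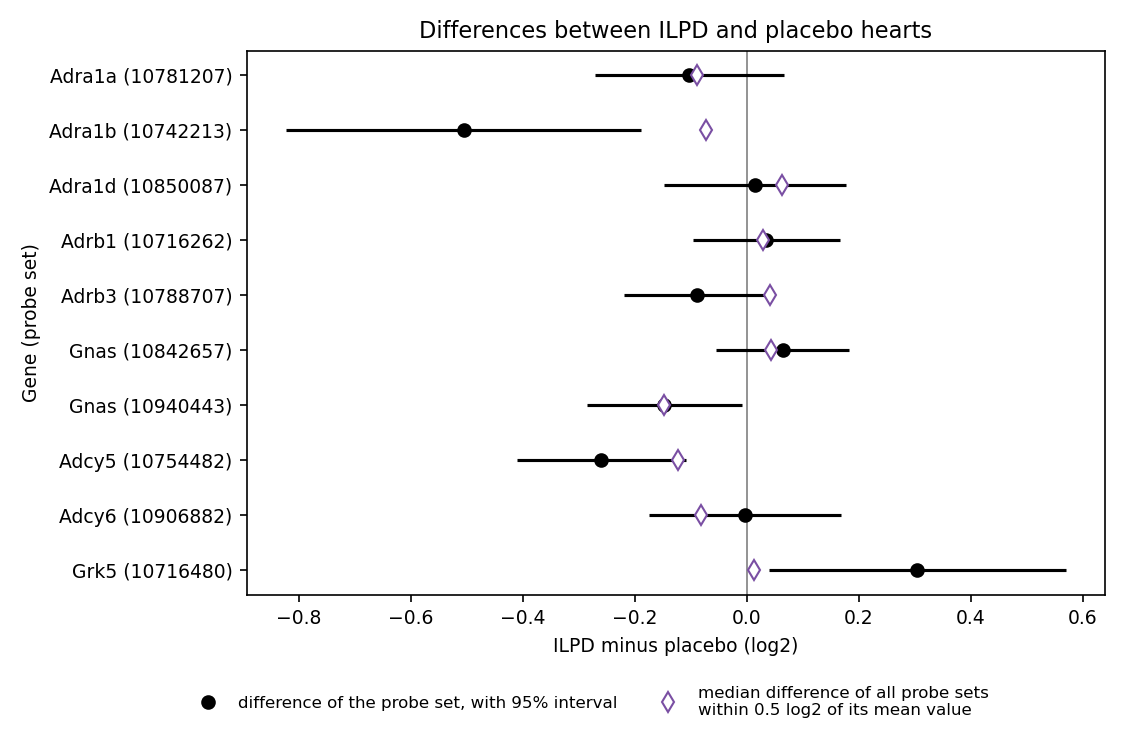
Difference between ILPD and placebo hearts (log2, x axis) for each probe set, as a point with its 95% interval from limma, and as an open diamond the median difference of all probe sets within 0.5 log2 of its mean value. The diamond lies on the point for the brighter Gnas probe set (-0.15), whose own value is the median, and near the point for Adra1a. It lies far from the point for Adra1b (-0.073 beside -0.51) and Grk5 (0.012 beside 0.30).

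Grk5, a receptor kinase of heart muscle cells (probe set 10716480), had 8.79, 9.02, 9.08, 8.56 and 8.65 on the ILPD arrays, against 8.61, 8.53 and 8.41 on the placebo arrays. ILPD arrays 2 and 3 stood highest, while ILPD array 4 lay inside the placebo range. The means were 8.82 ± 0.23 (SD, n = 5) in ILPD hearts and 8.52 ± 0.10 (SD, n = 3) in placebo hearts, a difference of 0.30 (SE 0.12, 95% interval 0.04 to 0.57, 1.23-fold, limma adjusted p = 0.213) that did not pass. Of 3759 probe sets of like brightness, 91.5% had a lower difference. The pooled SD of Grk5 within groups, 0.19, exceeded that of 89.1% of all probe sets, whereas that of Adrb1 was 0.067 and exceeded 19.0%. Over the settings run, the adjusted p of Grk5 lay between 0.0551 and 0.405.

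None of the negative differences passed the test as deposited, and that of Adcy6 was near 0. Of the 6 probe sets with a negative difference, ILPD array 5 was the highest ILPD array in 4 (Adra1a, Adra1b, Adcy5 and the brighter Gnas) and ILPD array 1 in the other 2 (Adrb3 and Adcy6). The genes whose values over all 8 arrays were most like those of Adcy5, the member with the lowest p, were Slc8a1, the sodium-calcium exchanger (Pearson r = 0.988), Sec24d (0.988) and Sec31a (0.985), both of the coat of vesicles that leave the endoplasmic reticulum. These coefficients are the highest among 14496 genes searched, a choice that by itself favours high values. They describe 8 points that share arrays and the group difference. Slc8a1 differed by -0.26 (limma adjusted p = 0.0939), Sec24d by -0.33 (0.0400) and Sec31a by -0.21 (0.0931).

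Other genes of adrenergic signalling were taken from 12 lists that hold 116 measured genes, each gene by its brightest probe set. In limma 1 rose and 4 fell in ILPD hearts, which is 4.31% of the 116 beside 2.81% of all probe sets (1.96% rose and 0.857% fell). An unadjusted p under 0.05 in limma was found for 30 of the 116, beside 18.3% of all probe sets. The median difference of the 116 genes was -0.0074. Of 3 genes with a further probe set, Gnb1 and Akap13 had probe sets of opposite sign, and no probe set of these genes passed. Among 6 other receptor kinases and arrestins 1 fell: Grk2, a kinase known for uncoupling beta receptors in the heart (probe set 10727537). It had 8.99, 9.10, 8.99, 9.04 and 9.15 on the ILPD arrays, against 9.35, 9.29 and 9.42 on the placebo arrays, with a difference of -0.30 (SE 0.06, limma adjusted p = 0.0311) and no overlap. The differences of Grk2 and Grk5 had opposite signs, and that contrast was not tested. The call of Grk2 was lost without any of 6 single arrays (ILPD arrays 2, 3 and 4 and all placebo arrays, adjusted p of up to 0.108) and with an intensity trend and a robust prior (0.0596), among other settings.

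Among 15 genes of protein kinase A, its inhibitors and its anchors 1 fell, Akap6, the anchor that holds the kinase at the nuclear envelope of muscle cells (probe set 10884585). Its values were 11.08, 11.10, 10.88, 10.89 and 11.13 on the ILPD arrays, against 11.36, 11.40 and 11.56 on the placebo arrays, a difference of -0.43 (SE 0.08, limma adjusted p = 0.0258). Of 1017 probe sets of like brightness, 2.46% had a lower difference, and their median was -0.13. The difference of Akap6 was -0.32 after quantile normalization and -0.31 after cyclic loess, and it passed in both (limma adjusted p = 0.0442 and 0.0492). All ILPD arrays lay below all placebo arrays, but the call was lost without ILPD array 4 or any placebo array (up to 0.0982) and on replicates 1 to 3 alone (0.0516), among other settings. The catalytic subunit Prkaca (-0.24, adjusted p = 0.157) and the regulatory subunit Prkar1a (-0.29, 0.0740) did not pass, and Akap12 had the largest difference of the list without passing (0.55, 0.149). Probe sets as bright as Prkaca or as Prkar1a had a median difference of -0.14 in each case. Among 12 genes of the phospholipase C and protein kinase C arm 1 fell, Prkce, the protein kinase C epsilon studied for its part in protection from ischemia (probe set 10882709). It had 10.55, 10.41, 10.33, 10.47 and 10.58 on the ILPD arrays, against 10.91, 10.91 and 10.89 on the placebo arrays. The placebo values lay within 0.021 of each other and above all ILPD values, with a difference of -0.44 (SE 0.07, limma adjusted p = 0.0108), a call lost only without placebo array 2 (0.0570) over the 16 settings run. Of 1576 probe sets of like brightness, 1.78% had a lower difference than Prkce, and their median was -0.11. The difference of Prkce was -0.34 after quantile normalization and also after cyclic loess. Of 11 genes of the CREB family and its targets 1 fell, Creb1, the transcription factor that protein kinase A phosphorylates (probe set 10923929). It had 7.85, 7.77, 7.78, 7.74 and 7.64 on the ILPD arrays, against 7.99, 8.30 and 8.04 on the placebo arrays, with no overlap and a difference of -0.35 (SE 0.08, limma adjusted p = 0.0462). Its call was lost without any single array other than ILPD array 1 (up to 0.134), on replicates 1 to 3 alone (0.121) and with an intensity trend and a robust prior (0.0520), among other settings.

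The gene that rose was Rgs1, 1 of 11 RGS proteins, which speed up the shutdown of G proteins and of which Rgs1 is best known from white blood cells (probe set 10768346). It had 6.88, 6.94, 7.13, 6.93 and 6.74 on the ILPD arrays, against 6.23, 6.21 and 6.39 on the placebo arrays, a difference of 0.64 (SE 0.08, 1.56-fold, limma adjusted p = 0.00642). All ILPD arrays lay above all placebo arrays, and the call held in the 15 settings that could test it, since the filter on dim probe sets removes it. Of 7 neutrophil markers, 7 had a positive difference (median 0.48) and 0 passed in limma, with 2 at an unadjusted p under 0.05. Probe sets of like brightness had a median difference of 0.047, taken over the windows of these genes, and 1 of the 7 lay below its own. The mean value of the neutrophil list ran from 7.66 to 8.34 over ILPD arrays and from 7.42 to 7.77 over placebo arrays. Of 7 markers of macrophages and monocytes 6 were positive (median 0.19, beside -0.042 for probe sets of like brightness). In limma 0 passed, with 2 at an unadjusted p under 0.05, and 1 of the 7 lay below the median of its window. The list's mean ran from 9.20 to 9.64 over ILPD arrays and from 8.93 to 9.26 over placebo arrays. The part of such cells in the value of Rgs1 was not tested.

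The remaining 7 lists had 0 called genes in limma: the alpha-2 receptors (3 measured, 1 at an unadjusted p under 0.05), the G protein subunits (15, with 3), the other adenylyl cyclases (6, with 0), the phosphodiesterases that break down cyclic AMP (14, with 3), the cyclic AMP effectors other than protein kinase A (5, with 1), targets that protein kinase A phosphorylates in muscle cells (10, with 4), and the synthesis, uptake and breakdown of catecholamines (8, with 2). Over all probe sets 18.3% had an unadjusted p under 0.05 in limma. The genes with the largest difference in these 7 lists were Adra2b (0.13, limma adjusted p = 0.257), Gnao1 (-0.36, 0.305), Adcy2 (0.12, 0.520), Pde7b (0.54, 0.106), Rapgef3 (0.26, 0.147), the potassium channel Kcnq1 (-0.32, 0.0971) and Ddc, which makes dopamine (-0.33, 0.229). In the CREB list the largest difference was that of Nr4a3 (-0.53, 0.497). Of the muscle cell targets 9 of 10 had a negative difference, with a median of -0.10, among them the calcium pump's partner Pln (-0.071) and the calcium release channel Ryr2 (-0.0068). Probe sets of like brightness had a median difference of -0.13, taken over the windows of these 10 genes, and 5 of the 10 genes, Pln and Ryr2 not among them, lay below the median of their own window.

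**Figure D3:**
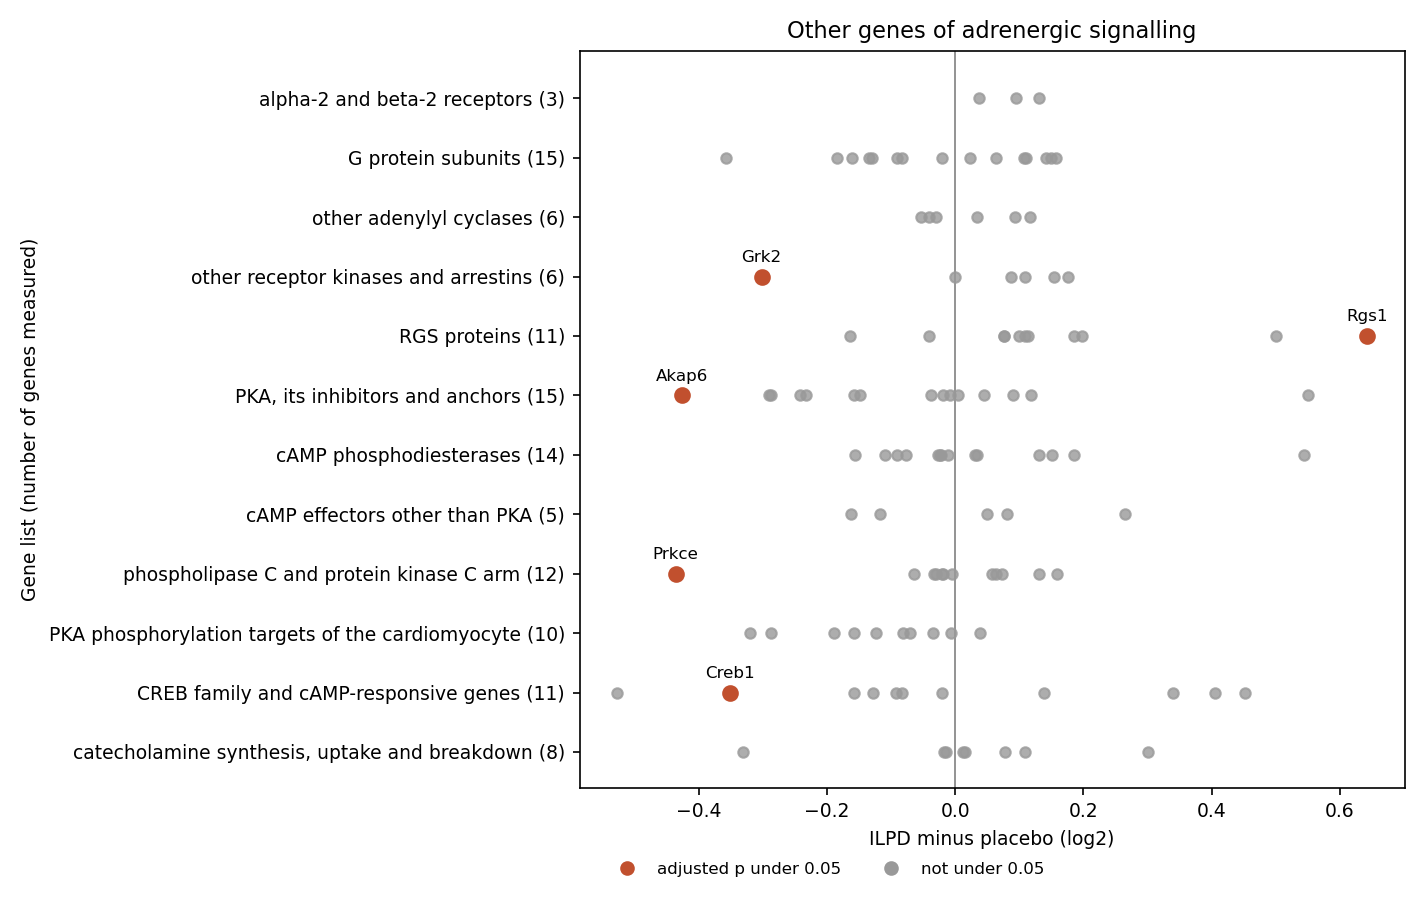
Difference between ILPD and placebo hearts (log2, x axis) for each measured gene of 12 lists of adrenergic signalling, with 1 row per list; coloured and named points passed an adjusted p of 0.05 in limma. Rgs1 (0.64) is the called gene on the right of 0, and Grk2, Akap6, Prkce and Creb1 (-0.30 to -0.44) are those on the left.

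The labelled tissue was set beside the signals of cell type markers, which is a rough check, since levels of different genes cannot be compared. All 10 markers of ventricular muscle cells measured had mean log2 values between 12.4 and 14.2. Of 5 markers of neurons and Schwann cells, 4 lay among the dimmest 40% of probe sets, at 6.24 to 7.06 for the list. Without detection values, a dim probe set does not show that its gene was absent. All 10 muscle cell markers had a negative difference (median -0.13). Probe sets of like brightness had a median difference of -0.14, taken over the windows of these 10 genes. Of the 10 markers 5 lay below the median of their own window. Tnnc1, the cardiac troponin C, passed (-0.37, limma adjusted p = 0.0195, beside a median of -0.15 for probe sets of its brightness). The mean value of the 10 markers ran from 13.40 to 13.57 over ILPD arrays and from 13.56 to 13.66 over placebo arrays. Of 7 markers of vascular smooth muscle and pericytes, cells that also carry alpha-1 receptors, 6 had a positive difference (median 0.16). Probe sets of like brightness had a median of -0.028, and 0 of the 7 lay below the median of their own window. In limma 1 passed (Kcnj8, 0.64, adjusted p = 0.0120). The mean of these 7 markers ran from 9.96 to 10.17 over ILPD arrays and from 9.72 to 9.83 over placebo arrays. Of 5 markers of endothelium 4 had a positive difference (median 0.085, beside -0.11 for probe sets of like brightness). Of 6 markers of fibroblasts 5 had a negative difference (median -0.13, beside -0.053). Of 3 markers of atrial muscle 2 had a negative difference (median -0.19, beside -0.13). Endothelium, fibroblasts and atrial muscle had 0 called markers in limma, with 1, 1 and 0 at an unadjusted p under 0.05. The part of these cells in the values of Adra1b, Adcy5 and the other members was not tested.

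**Figure D4:**
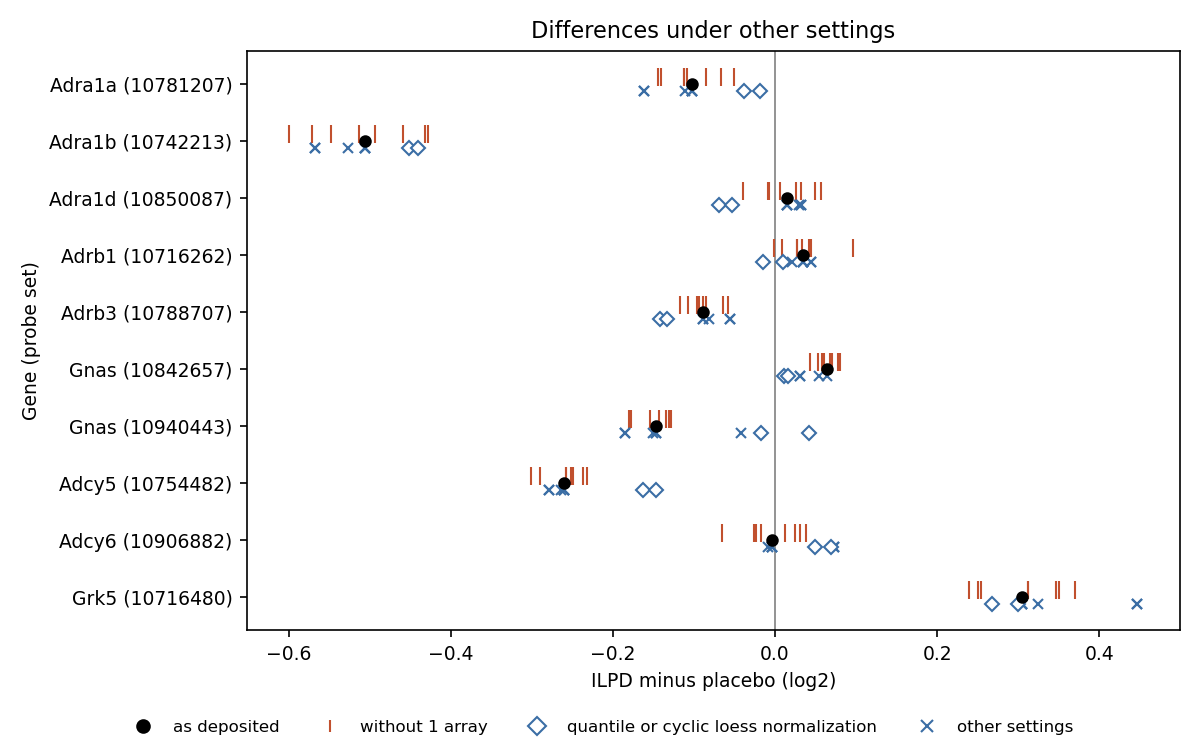
Difference between ILPD and placebo hearts (log2, x axis) of each probe set in the values as deposited (black point), without each array in turn (ticks), after quantile or cyclic loess normalization (open diamonds) and under the other settings (crosses). Adra1b stays between -0.60 and -0.43 and Grk5 between 0.24 and 0.45, while the brighter Gnas probe set, Adcy6, Adra1d and Adrb1 take values on both sides of 0.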

How the data were processed

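Total RNA of rat left ventricle was hybridised to Affymetrix arrays as biotinylated cRNA, per the labels' protocols. The deposited values are log2 signals, as their range from about 5 to 15 shows. How the authors normalized them is not stated here, and the submitters' processing notes name R 2.14.2. Array medians were 7.16 to 7.20 (ILPD) and 7.08 to 7.14 (placebo); the few arrays set the precision. Gene names came from the platform annotation, in which 15209 probe sets had 1 symbol. The groups were compared on all 28826 probe sets in limma 3.58.1 (R 4.3.3, lmFit and eBayes, constant prior, neither covariates nor a pseudocount), two-sided, with Benjamini-Hochberg adjusted p-values; the script was tested on simulated data. Figures were drawn with matplotlib 3.10.9. The text names every member, each list's called genes and its gene with the largest difference, and the 3 genes most like the member with the lowest p; Prkaca, Prkar1a, Pln, Ryr2, Gnb1, Akap13 and the markers that passed were added after their values were seen. The members and lists were chosen with earlier results of these data known. Alternatives were other priors, array weights, quantile and cyclic loess normalization, leaving out the dimmest 40%, gene means, the replicate number as a block and dropping each array.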

Additional observations from a re-analysis of the deposited data

How the results depend on the processing

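The number of member probe sets called, 0, was the same under 15 of 16 settings, and 0 to 2 over those that leave out 1 array. The 2 were Adra1b (-0.60 to -0.43 over the single arrays left out) and Adcy5 (-0.30 to -0.23), both without ILPD array 5. Over the single arrays left out, the difference ran from -0.066 to 0.039 for Adcy6, from -0.040 to 0.057 for Adra1d and from -0.00091 to 0.096 for Adrb1. Signs also turned after quantile normalization (Adcy6 0.050, Adra1d -0.069, Adrb1 -0.015), after cyclic loess (Adcy6 0.069, Adra1d -0.053, the brighter Gnas 0.042) and with the replicate block (Adcy6 0.073). Calls over all probe sets numbered 811 as deposited, 484 after quantile normalization, 998 with array weights, and, over single arrays left out, 172 (without placebo array 2) to 975 (without ILPD array 5). Pathway genes that fell numbered 4; they were 2 with an intensity trend and robust prior, and ran from 0 to 4 over single arrays left out. Those that rose numbered 1; there were 0 without the dimmest 40% and 1 to 2 over single arrays left out. The deviations of same-numbered arrays had correlations of 0.22, -0.064 and -0.098, and 1 of 3 placebo arrays was closest to its own number. So few pairs cannot show whether same-numbered samples share more than a number. The replicate block, fitted on replicates 1 to 3, left 459 calls over all probe sets, 0 members, and 2 pathway genes that fell (Prkce and Gnao1, adjusted p = 0.0442 and 0.0345 in limma) and 2 that rose; Grk2 (0.102), Akap6 (0.102) and Creb1 (0.165) lost their calls. The same 6 arrays without the block, added after seeing the data, gave 635 calls, 0 members, 4 pathway genes that fell and 2 that rose, and 0.073 for Adcy6. No detection values were used, so how far the dimmest probe sets stood above background is unknown. The alternative for linear values was not needed.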

Other observations

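Nr4a3, an early response gene of the CREB list, had the widest spread among the placebo hearts of the genes named by rule. It had 8.04, 8.20, 9.07, 8.65 and 8.09 on the ILPD arrays, against 8.18, 8.69 and 9.94 on the placebo arrays. Its difference of -0.53 was -0.027 without placebo array 3. Gnao1, the alpha subunit of Go, had 10.48, 10.70, 10.72, 10.97 and 11.39 on the ILPD arrays, against 11.19, 11.28 and 11.15 on the placebo arrays. ILPD array 5 was the highest of all 8, and without it the difference was -0.49 and passed in limma (adjusted p = 0.0409). Gnao1 also passed on replicates 1 to 3 alone (-0.58, limma adjusted p = 0.0193), which leave out ILPD array 5 as well. On all arrays its difference was -0.26 after quantile normalization (limma adjusted p = 0.562) and -0.24 after cyclic loess (0.584). Probe sets of like brightness had a median difference of -0.12. Pde7b, a cyclic AMP phosphodiesterase, passed without ILPD array 5 (0.65, limma adjusted p = 0.0297) and on replicates 1 to 3 alone (0.70, 0.0432). With all arrays neither passed.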
